A study of Mus musculus with 16 samples.

Results

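The genes described are the amino acid carriers of mouse macrophages, taken as every gene with a probe set of a single symbol from the solute carrier families Slc1, Slc3, Slc6, Slc7, Slc36, Slc38 and Slc43. The rule found 64 genes among 19938 measured on 16 one-colour arrays, and all were kept whatever their signal. Alveolar macrophages (AM) live in the airspaces of the lung and were sorted from lung digests, and large peritoneal macrophages (LPM) live in the peritoneal cavity and were sorted from lavage. All mice were male C57BL/6. The groups were LPM of mice given IL-4c and carrying Bhlhe40LysM (LysM-Cre+ Bhlhe40 fl/fl, 2 arrays), Bhlhe40KO (Bhlhe40-/-, 2 arrays) or Bhlhe40WT (Bhlhe40+/+, 2 arrays), naive LPM of KO (3 arrays) and WT (3 arrays), and naive AM of KO (2 arrays) and WT (2 arrays). IL-4c is a name in the field for IL-4 bound to an antibody that prolongs its action. It was injected on days 0 and 2 before the mice were killed on day 4, and naive mice were untreated. No array comes from mice given a control injection, so an effect of injection cannot be told apart from that of IL-4c. LysM-Cre acts in myeloid cells, and no array comes from mice with that Cre and an intact Bhlhe40 gene, so an effect of the Cre or of the floxed allele cannot be told apart from loss of Bhlhe40 in that group. Ages, and whether replicates were separate mice or pools, are not given in the labels, so the p-values reflect spread among arrays that may be technical, and 2 or 3 arrays a group limit the precision.

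Amino acids cross membranes mainly through carrier proteins. Some carriers load the cell using sodium or the membrane potential, some exchange one amino acid for another, and some sit in the lysosome, where they release amino acids and feed the growth kinase complex mTORC1. Macrophages activated by IL-4 convert arginine to ornithine with arginase, so arginine carriers have long been studied in them, while the cystine carrier xCT supplies the cysteine for glutathione. The transcription factor ATF4, made when amino acids run short, binds a short element with the core TGATGCAA and switches on many carrier genes. Bhlhe40 is a transcriptional repressor that binds the E-box CACGTG, a site shared with the lysosomal regulators MITF, TFEB and TFE3.

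Promoters of 2 members are shown because each holds 2 copies of one of these elements and because both genes differed between groups. Slc7a11 differed between LPM and AM and Slc36a1 between IL-4c and naive LPM, and neither was called in a KO or LysM minus WT comparison. The choice was made after their values were seen. The sequences are from RefSeq, run 5′ to 3′ on the strand of the gene from 250 bases before to 50 bases after its start, and have the motif in capitals. Slc7a11 encodes xCT and lies at chr3:50443564-50443863 on the minus strand, and Slc36a1 encodes the lysosomal proton-coupled carrier PAT1 and lies at chr11:55204090-55204389 on the plus strand, both in GRCm38.p6.
Slc7a11: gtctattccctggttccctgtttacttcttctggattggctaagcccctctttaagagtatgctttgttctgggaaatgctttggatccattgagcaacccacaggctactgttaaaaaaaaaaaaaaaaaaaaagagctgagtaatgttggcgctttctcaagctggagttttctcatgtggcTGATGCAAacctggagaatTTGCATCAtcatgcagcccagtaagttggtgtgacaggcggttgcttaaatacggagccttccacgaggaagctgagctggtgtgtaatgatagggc
Slc36a1: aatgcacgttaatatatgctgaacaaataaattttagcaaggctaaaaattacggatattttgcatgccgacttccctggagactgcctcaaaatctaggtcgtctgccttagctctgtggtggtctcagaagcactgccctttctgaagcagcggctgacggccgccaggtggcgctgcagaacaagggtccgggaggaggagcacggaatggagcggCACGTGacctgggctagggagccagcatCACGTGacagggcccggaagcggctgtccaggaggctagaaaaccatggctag
In Slc7a11 the ATF4 core TGATGCAA began 66 bases before the start on the gene's strand and 47 bases before it on the opposite strand. In Slc36a1 the E-box CACGTG, which reads the same on both strands, began 31 and 3 bases before the start. Searched on both strands of 32851 promoters of the same length, TGATGCAA occurred in 0.895% and at least 2 copies in 0.0061%, which is 2 promoters, while CACGTG occurred in 7.15% and at least 2 copies in 0.5936%. The motifs do not overlap each other, and a match is a string of letters and not a shown binding site. The 47 members with an entry had 68 promoters, of which 9 held CACGTG, 13.2%, and 4 held TGATGCAA, 5.88%. The 4 belong to Slc7a11, the y+LAT1 gene Slc7a7 and the neutral amino acid carrier gene Slc1a4.

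Many of the carriers gave no signal above the middle of the array. The values are log2 signals, each array's median lay between 4.79 and 4.93, and replicate arrays correlated at 0.989 to 0.995 across probe sets. Of the 64 members 20 exceeded the array median on all 16 arrays and 33 exceeded it on no array. Olfactory receptor genes, 1035 probe sets, served as a second yardstick, and relative to their 95th percentile on each array (4.37 to 4.68), 23 members were higher on all arrays and 25 on none. Genes needed 2 arrays above the median to be tested, which left 29 members among 11634 genes. By family these were 10 of 16 in Slc7, 6 of 11 in Slc38, 6 of 21 in Slc6, 3 of 4 in Slc36, 2 of 3 in Slc43, 1 of 2 in Slc3 and 1 of 7 in Slc1.

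The glutamate carriers were among those below the filter. Slc1a3, the glial glutamate carrier GLAST that some macrophages make, had signals between 3.30 and 4.66 over all arrays, and the highest were the WT AM arrays at 4.66 and 4.28. Only Slc1a5, the glutamine exchanger ASCT2, was tested from its family. Some members passed the filter through a single kind of sample, namely Slc7a11 and the serotonin carrier gene Slc6a4 through AM, Slc36a2 through IL-4c LPM and the dopamine carrier gene Slc6a3 through naive KO LPM, so a difference in those samples is built into their selection. The rule is wider than the name amino acid transporter. It takes in carriers of monoamines (Slc6a2, Slc6a3, Slc6a4), creatine (Slc6a8), taurine (Slc6a6) and purine nucleobases (Slc43a3), the noncoding gene Slc6a19os and Slc7a6os, which is named for its place opposite Slc7a6 and is no carrier. Every member was read by 1 probe set except Slc38a1 and Slc38a9, with 2 each, of which the brighter was used.

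The sorted cells carried their identity markers. Over 8 LPM markers the mean log2 signal was 10.14 to 10.56 on naive LPM arrays and 5.15 to 5.45 on AM arrays. Over 9 AM markers it was 5.60 to 5.91 on naive LPM arrays and 9.88 to 10.29 on AM arrays. Of the 9 AM markers 7 were called lower in LPM in each genotype, while Fabp4 was called higher (0.97 in KO and 1.87 in WT). Bhlhe40 was lower in KO in AM (log2 difference -2.17), naive LPM (-1.89) and IL-4c LPM (-0.93), each called by limma, and was not called on the arrays labelled LysM (-0.09, adjusted p = 0.84). Directions drawn from that group therefore rest on its label. These are bulk samples, so fewer cells that express a gene and less RNA per cell cannot be told apart.

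IL-4c and the carriers of LPM were compared first in WT, where the question is which uptake routes differ in alternatively activated cells. The arginine carrier genes Slc7a2 and Slc7a1, the proton-coupled carrier genes Slc36a1 and Slc36a2, the leucine exchanger gene Slc7a5 and the glutamine exchanger gene Slc1a5 rose, and the neutral carrier genes Slc7a8 and Slc43a2 fell. Of the 29 tested members 9 were higher and 5 lower in IL-4c LPM by limma at an adjusted p under 0.05, which is 48.3%, against 41.2% of all genes tested, 22% higher and 19.2% lower. The members' share was near that of all genes. The median member differed by 0.11 on the log2 scale and the median gene by 0.02.

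Among the cationic carriers, Slc7a2 encodes CAT2, an arginine importer of activated macrophages. Its log2 signal was 11.34 and 11.41 in IL-4c WT LPM, against 8.33, 8.19 and 8.15 in naive WT LPM. The IL-4c arrays lay far above every naive array, an 8.87-fold rise (log2 difference 3.15 ± 0.13 SE, adjusted p = 1.4e-10). Slc7a1, the constitutive arginine carrier CAT1, had 7.17 and 7.75 in IL-4c WT LPM, against 6.61, 6.69 and 6.57 in naive WT LPM. It rose 1.79-fold (0.84 ± 0.16, adjusted p = 0.00073), and the IL-4c arrays differed from each other by more than the naive ones did. The enzymes that use arginine and make polyamines moved mostly upward as well. Of 10 tested 5 were higher and 1 lower, against 22% higher and 19.2% lower among all genes tested. Arginase 1, Arg1, led the rises (4.17, adjusted p = 1.6e-10). Spermidine synthase, Srm, rose by 1.25 and Sat1, which acetylates polyamines, fell by 1.11 on the log2 scale.

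Heteromeric carriers pair the heavy chain CD98, encoded by Slc3a2, with a light chain that sets the substrate. The light chain Slc7a5, the leucine exchanger LAT1, had 7.60 and 7.87 in IL-4c WT LPM, against 6.41, 5.80 and 6.09 in naive WT LPM. It rose 3.1-fold (1.63 ± 0.18, adjusted p = 4.8e-06). The heavy chain itself had 8.11 and 8.07 in IL-4c WT LPM, against 7.93, 7.65 and 7.88 in naive WT LPM, and did not pass the test (0.26, 95% interval -0.14 to 0.66).

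Light chains that were called went both ways. Slc7a7, whose product y+LAT1 exports cationic amino acids, had 7.71 and 8.16 in IL-4c WT LPM, against 7.18, 7.25 and 7.40 in naive WT LPM, a rise of 1.57-fold (0.66 ± 0.17, adjusted p = 0.0056). Slc7a8, the neutral exchanger LAT2, had 6.31 and 6.14 in IL-4c WT LPM, against 6.9997, 7.001 and 7.21 in naive WT LPM, and fell (-0.84 ± 0.28, adjusted p = 0.026). Without the second IL-4c array neither was called (0.43, adjusted p = 0.12 for Slc7a7, and -0.76, adjusted p = 0.14 for Slc7a8), and Slc7a8 was also lost without the first IL-4c array (adjusted p = 0.07) or the third naive array (adjusted p = 0.072). The cystine carrier gene Slc7a11 stayed in the background range at 3.18 and 3.43 in IL-4c WT LPM, against 3.15, 3.00 and 3.06 in naive WT LPM.

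Slc1a5, the glutamine exchanger ASCT2, had 7.81 and 8.15 in IL-4c WT LPM, against 7.10, 6.79 and 6.91 in naive WT LPM. It rose 2.06-fold (1.05 ± 0.13, adjusted p = 1.6e-05). The sodium-coupled glutamine importers Slc38a1 and Slc38a2 were not called, with differences of -0.02 and 0.11. Of the same family Slc38a10 rose by 0.62, while Slc38a6, an SLC38 carrier whose substrates are poorly defined, fell to 6.20 and 5.97 in IL-4c WT LPM, against 6.68, 7.02 and 6.70 in naive WT LPM (-0.72 ± 0.21, adjusted p = 0.011), a call lost without the second IL-4c array (-0.60, adjusted p = 0.11). Slc38a9, the lysosomal arginine sensor of mTORC1, was called lower (-0.44, adjusted p = 0.033), but the mean of its 2 probe sets was not (-0.20, adjusted p = 0.27), nor was the brighter one without the second naive array (-0.27, adjusted p = 0.16) or without either IL-4c array (adjusted p = 0.074 and 0.18), with the arrays centred on their medians (adjusted p = 0.063) or with the compared arrays alone (adjusted p = 0.056).

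Of 3 tested proton-coupled carriers 2 rose in WT. Slc36a1, the lysosomal exporter PAT1 whose promoter is shown above, had 7.79 and 7.73 in IL-4c WT LPM, against 6.25, 6.77 and 7.05 in naive WT LPM, a rise of 2.11-fold (1.07 ± 0.18, adjusted p = 0.00022). Slc36a2, the glycine and proline carrier PAT2, had 5.95 and 6.22 in IL-4c WT LPM, against 4.47, 4.39 and 4.47 in naive WT LPM. Its naive signal lay at the olfactory receptor level, so its 3.12-fold difference has a background signal as its lower term. It passed the filter through IL-4c LPM alone, so its rise here and in KO is built into its selection. Slc43a3, a carrier of purine nucleobases rather than of amino acids, had 7.67 and 8.08 in IL-4c WT LPM, against 4.66, 5.11 and 4.88 in naive WT LPM, a 7.97-fold rise (2.99 ± 0.27, adjusted p = 6.1e-07). Its relative Slc43a2, the leucine and phenylalanine carrier LAT4, fell to 7.25 and 7.33 in IL-4c WT LPM, against 7.94, 7.62 and 7.97 in naive WT LPM (-0.55 ± 0.16, adjusted p = 0.01), a call lost without the first IL-4c array (-0.52, adjusted p = 0.068). Slc7a6os, no carrier, fell as well (-0.51, adjusted p = 0.0043). None of the 6 tested Slc6 members was called in WT, and all 6 had an unadjusted p above 0.05 in limma.

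**Figure D1:**
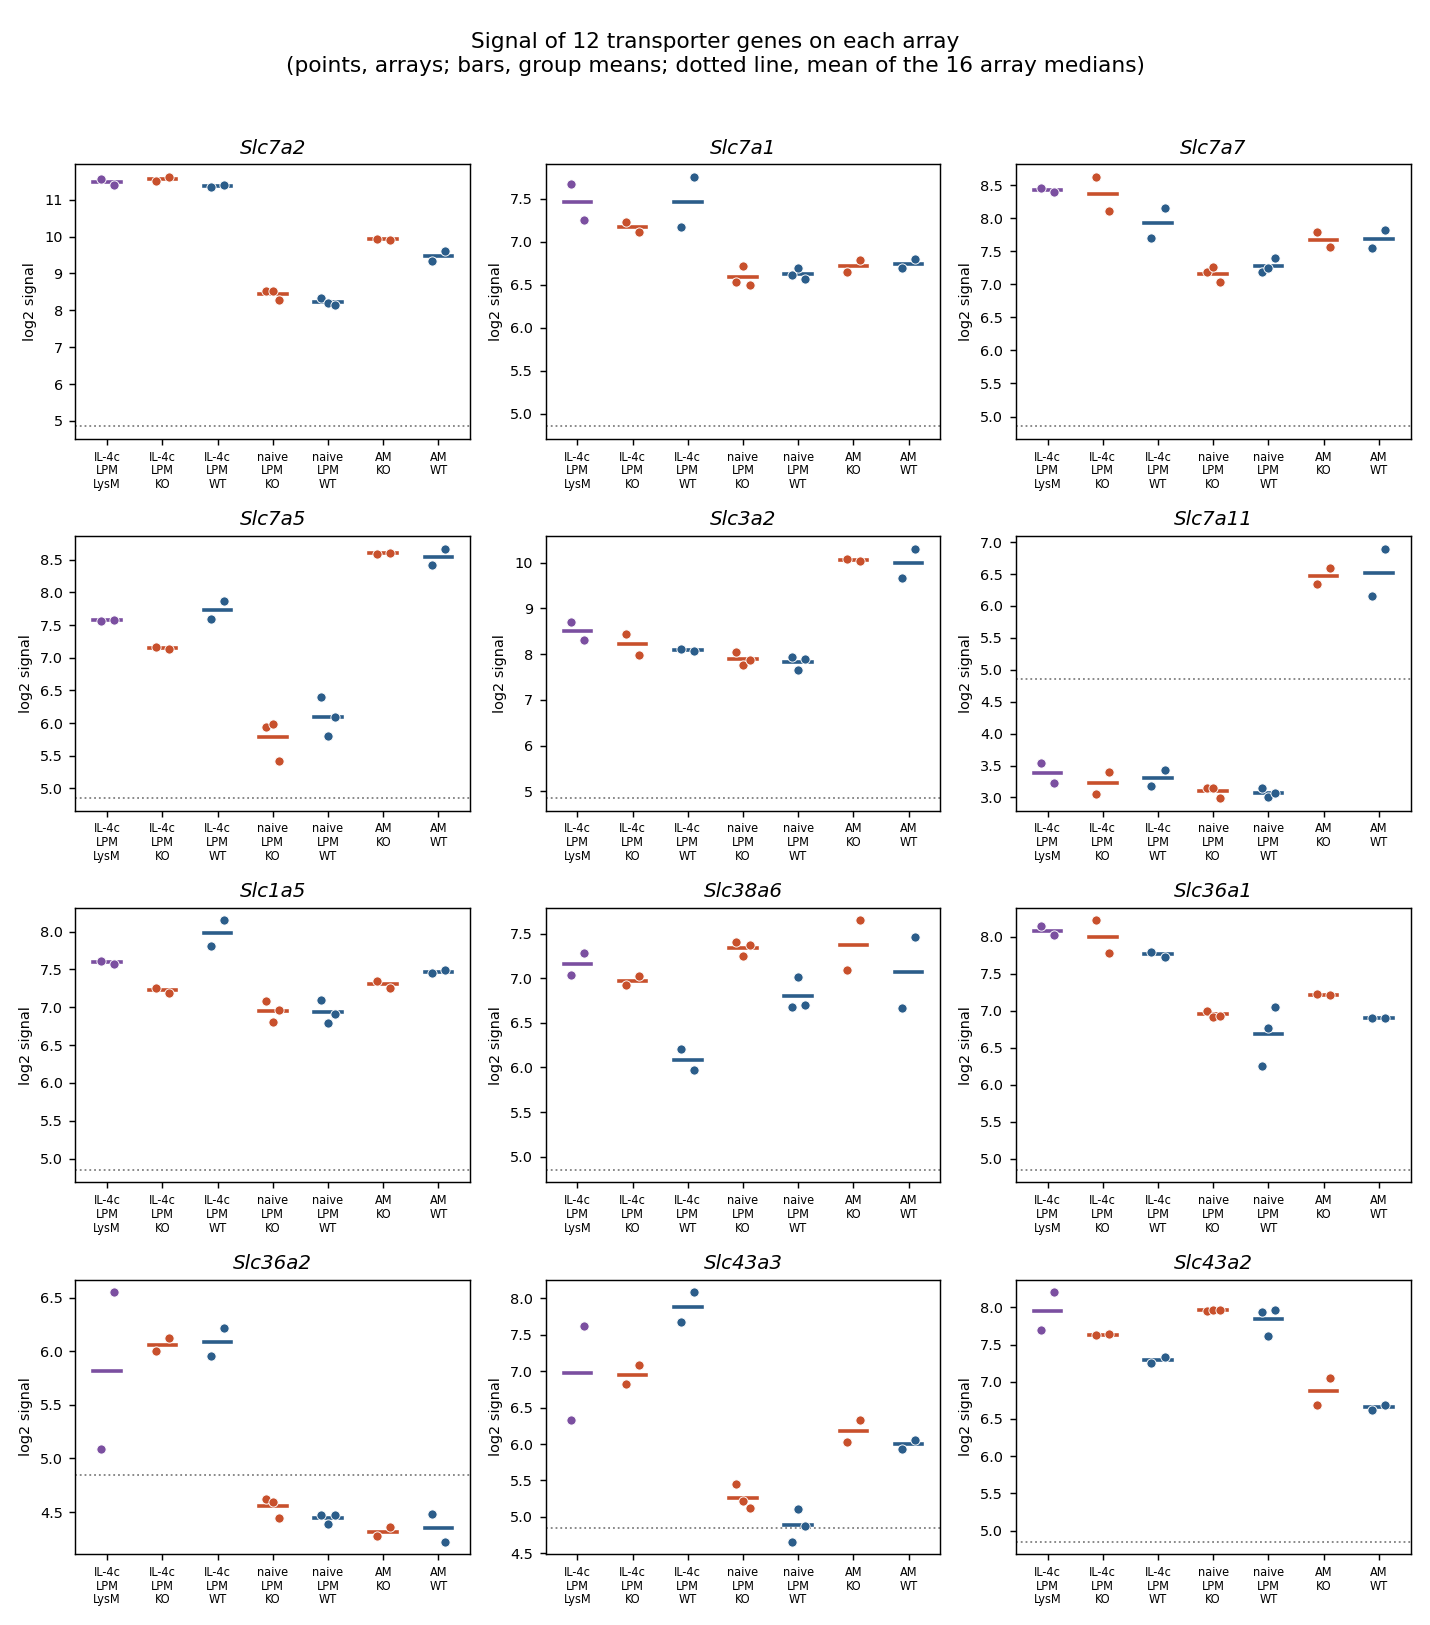
Log2 signal (vertical axis) of 12 members on each of the 16 arrays, in the 7 groups from IL-4c LPM at the left to AM at the right. Points are arrays, bars are group means, colours give the genotype, and the dotted line is the mean of the array medians; Slc7a2 sits between 11.34 and 11.62 in IL-4c LPM and between 8.15 and 8.53 in naive LPM, while Slc7a11 exceeds the dotted line on the 4 AM arrays only.

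The same contrast in KO called 10 members higher and 2 lower, 41.4% of the 29, against 37.3% of all genes tested, 21.9% higher and 15.4% lower. Slc7a2 had 11.52 and 11.62 in IL-4c KO LPM, against 8.52, 8.53 and 8.27 in naive KO LPM, a rise of 8.74-fold (3.13 ± 0.13, adjusted p = 2.3e-10). Slc36a2 (1.51), Slc7a5 (1.37), Slc36a1 (1.05), Slc38a10 (0.76) and Slc7a1 (0.59) also rose, as did Slc36a4, the amino acid carrier PAT4 (0.70), and Slc38a7, a lysosomal glutamine exporter (0.46). Without the first IL-4c KO array Slc36a4 (0.43, adjusted p = 0.17), Slc38a7 (0.28, adjusted p = 0.32) and Slc7a1 (0.53, adjusted p = 0.081) were not called, and Slc38a7 was also lost without the second or the third naive array and with the compared arrays alone (adjusted p = 0.063). The 2 called lower were Slc7a6os (-0.60, adjusted p = 0.0017) and Slc6a3 (-0.32, adjusted p = 0.042). The signal of Slc6a3 stayed near the array median and its call held in 2 of 11 other settings. Slc6a3 passed the filter through naive KO LPM alone, so its lower value is built into its selection. Slc7a7 had 8.63 and 8.11 in IL-4c KO LPM, against 7.18, 7.27 and 7.04 in naive KO LPM, and its rise of 1.21 stood beside 0.66 in WT. Slc43a3 had 6.83 and 7.08 in IL-4c KO LPM, against 5.46, 5.21 and 5.12 in naive KO LPM, a rise of 3.22-fold (1.69 ± 0.27, adjusted p = 0.00019). Slc1a5 had 7.25 and 7.19 in IL-4c KO LPM, against 7.08, 6.81 and 6.96 in naive KO LPM, and was not called (0.27, 95% interval -0.01 to 0.56). Slc7a8, Slc38a6, Slc43a2 and Slc38a9, which fell in WT, were not called in KO, with differences of -0.23, -0.37, -0.33 and -0.03.

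Whether the response differed between genotypes was tested directly as the IL-4c difference in KO minus that in WT. Limma called 0 of the 29 members, against 0.55% of all genes, 0.404% higher and 0.146% lower, and 4 members had an unadjusted p under 0.05. These were Slc43a3 (-1.31, 95% interval -2.12 to -0.50, adjusted p = 0.13), Slc1a5 (-0.77, interval -1.17 to -0.37, adjusted p = 0.081), Slc7a7 (0.55, interval 0.04 to 1.06) and Slc6a3 (-0.47, interval -0.82 to -0.12). Slc6a3 passed the filter through naive KO LPM alone, a group of this contrast. For Slc7a2 the difference between the responses was -0.02 with an interval of -0.41 to 0.36. A second quantile normalization called Slc1a5 (-0.86, adjusted p = 0.0498) and a fit to the LPM arrays of this contrast alone called Slc43a3 (adjusted p = 0.04). Arg1, which is no member, did differ (-1.43, adjusted p = 0.013). By limma its KO minus WT difference was 1.46 in naive LPM (adjusted p = 0.00011) and 0.03 in IL-4c LPM (adjusted p = 0.97).

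**Figure D2:**
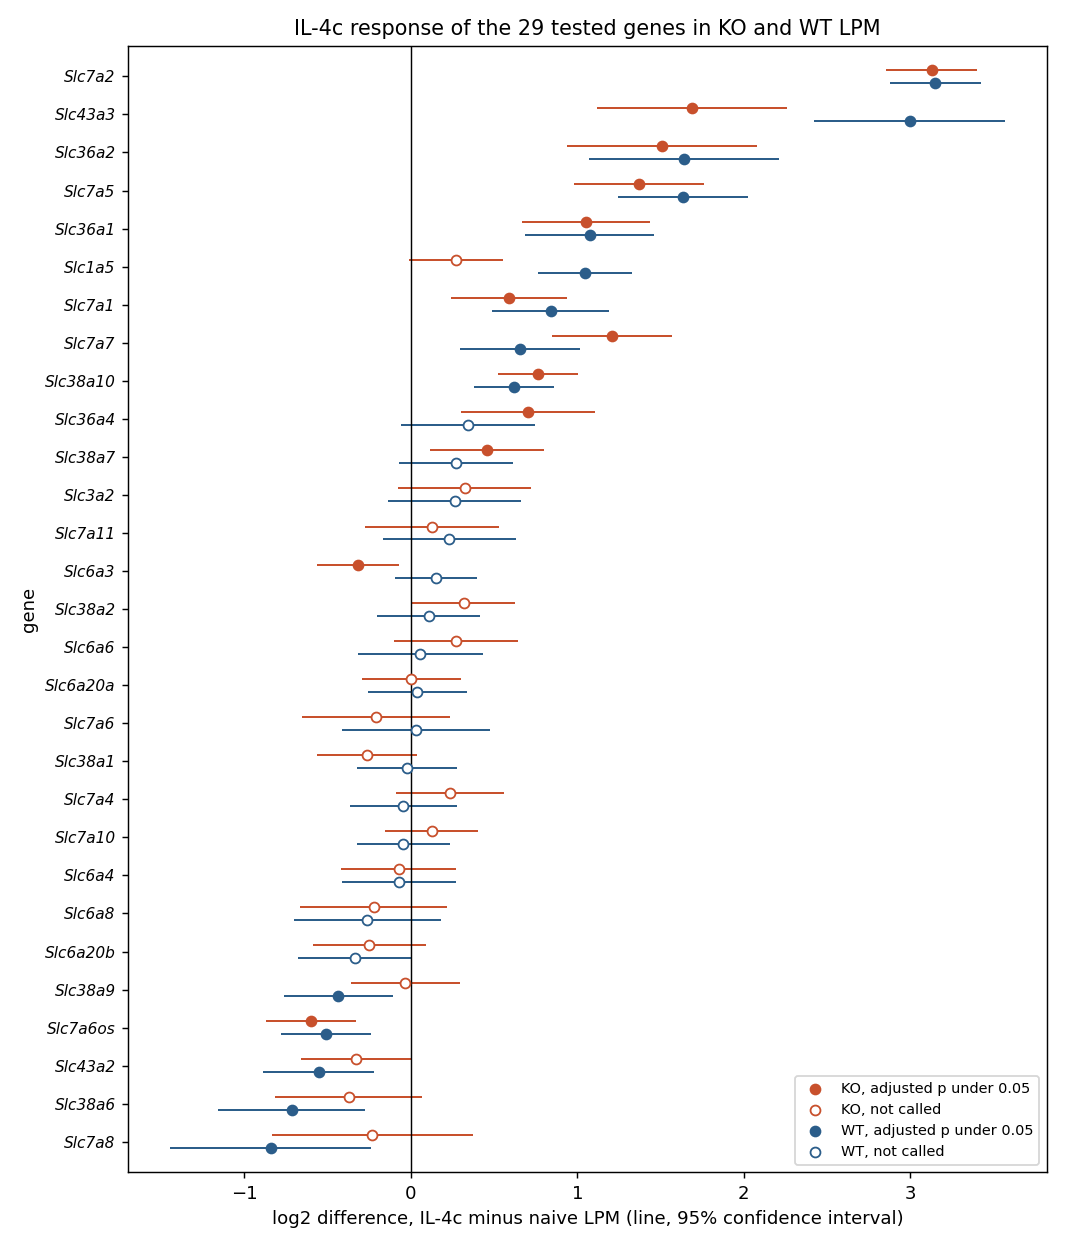
Log2 difference of IL-4c minus naive LPM (horizontal axis) for the 29 tested members (rows, ordered by the WT value), in KO above and in WT below within each row. Lines are 95% confidence intervals and filled points passed an adjusted p of 0.05; Slc7a2 stands at 3.13 in KO and 3.15 in WT, and Slc1a5 at 0.27 and 1.05.

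Counts of other amino acid genes called with IL-4c in LPM follow. Of all genes tested 21.9% were higher and 15.4% lower in KO, and 22% were higher and 19.2% lower in WT. Of 16 tested genes linked to ATF4, 9 were higher and 0 lower in KO, and 9 were higher and 1 lower in WT, led in WT by Shmt2 (2.11), a mitochondrial serine enzyme, asparagine synthetase Asns (2.09) and the serine synthesis gene Psat1 (1.98). Of 17 cytosolic aminoacyl-tRNA synthetases, which charge tRNAs with amino acids, 7 were higher in KO and 11 in WT, with none lower in either. Glutamine and glutamate enzymes numbered 4 higher and 1 lower of 10 in KO and 6 higher and 1 lower of 10 in WT. Of 32 genes of amino acid sensing by mTORC1, 10 were higher and 1 lower in KO, and 7 were higher and 3 lower in WT. Their share called in either direction was below that of all genes (37.3% in KO and 41.2% in WT). In WT the arginine sensor relative Castor2 rose by 1.34 and the leucine sensor Sesn1 fell by 1.09 on the log2 scale. Beside these, the mean log2 signal of 7 B cell markers ran from 3.66 to 3.88 after IL-4c and from 4.15 to 4.87 in naive LPM, with 4 of 4 tested markers lower in KO and 3 of 4 in WT. For 8 markers of monocytes, dendritic cells and small peritoneal macrophages it was 5.39 to 5.62 and 4.91 to 5.11, with 3 higher and 1 lower of 6 tested in KO and 2 higher and 2 lower in WT. The 7 neutrophil markers averaged 4.06 to 4.52 after IL-4c and 4.57 to 4.85 in naive LPM. Of 5 tested 1 was higher and 1 lower in KO, and 2 were lower in WT. Csf3r differed by -1.82 in KO and -3.74 in WT, and the median of the 5 by 0.30 and 0.06. For 8 endothelial markers the mean was 4.75 to 4.89 after IL-4c and 4.52 to 4.71 in naive LPM, with 2 higher and 1 lower of 3 tested in KO and 1 higher and 1 lower in WT. The 8 LPM markers averaged 9.58 to 9.87 after IL-4c and 10.14 to 10.56 in naive LPM. Of these 3 of 8 were lower in KO and 4 of 8 in WT. The 9 AM markers averaged 6.32 to 6.75 after IL-4c and 5.60 to 5.91 in naive LPM. Of these 2 were higher and 2 lower in KO, and 2 were higher and 1 lower in WT. The 2 higher were Chil3 (7.47 in KO and 5.66 in WT) and Car4 (3.43 and 3.16). The median AM marker differed by -0.13 in KO and -0.02 in WT. The part of these differences in the carrier values was not tested.

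Few members differed by genotype within IL-4c LPM. In LysM 3 of 29 were higher and 0 lower than in WT, 10.3%, against 8.67% of all genes tested, 4.8% higher and 3.87% lower. In KO 1 was higher and 1 lower, 6.9%, against 3.63% of all genes, 2.12% higher and 1.5% lower. The median difference of the members was 0.22 in LysM and 0.10 in KO, and that of all genes -0.01 and -0.02. Both comparisons use the same 2 WT arrays, so their values are given side by side and are not independent.

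Slc38a6 was called higher in both. Its signal was 7.04 and 7.28 in LysM and 6.92 and 7.02 in KO, against 6.20 and 5.97 in WT. All 4 arrays lay above both WT arrays, and the log2 differences were 1.07 ± 0.23 in LysM (adjusted p = 0.0083) and 0.89 ± 0.23 in KO (adjusted p = 0.042). Without the second WT array neither was called (0.96, adjusted p = 0.099 in LysM, and 0.77, adjusted p = 0.3 in KO), and the KO call was also lost without any other single array of that comparison, at adjusted p values of 0.075, 0.15 and 0.13. It was lost as well with the arrays centred on their medians (adjusted p = 0.057) and with no filter (adjusted p = 0.053).

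Slc1a5 had 7.61 and 7.58 in LysM and 7.25 and 7.19 in KO, against 7.81 and 8.15 in WT. The KO arrays were the lowest and the WT arrays the highest, without overlap. It fell in KO (-0.76 ± 0.15, adjusted p = 0.0092), while the LysM difference of -0.39 was not called (adjusted p = 0.12). The KO call was lost without the second WT array (-0.59, adjusted p = 0.16), without the first KO array (-0.79, adjusted p = 0.055) and with the compared arrays alone (adjusted p = 0.079).

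LysM alone had Slc43a2 and Slc6a8 called, though the difference between LysM and KO was not tested. Slc43a2 had 7.70 and 8.21 in LysM and 7.62 and 7.64 in KO, against 7.25 and 7.33 in WT, with differences of 0.66 ± 0.17 in LysM (adjusted p = 0.025) and 0.34 in KO. Both KO and both LysM arrays lay above both WT arrays, and without the second LysM array the difference was 0.41 (adjusted p = 0.19). The LysM call was also lost without either WT array (adjusted p = 0.11 and 0.12). Slc6a8, the creatine carrier, had 5.85 and 4.86 in LysM and 4.95 and 4.63 in KO, against 4.53 and 4.45 in WT. The first LysM array decides that value, since without it the difference was 0.36 (adjusted p = 0.36), against 0.86 with it (adjusted p = 0.027). Without either WT array it was not called (adjusted p = 0.081 and 0.17). With the compared arrays alone neither Slc43a2 (adjusted p = 0.14) nor Slc6a8 (adjusted p = 0.2) was called in LysM.

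Several uncalled members had intervals that left out 0. Slc7a8 had 7.43 and 7.08 in LysM and 7.82 and 6.47 in KO, against 6.31 and 6.14 in WT, giving 1.03 in LysM (adjusted p = 0.052) and 0.91 in KO (adjusted p = 0.13). Slc43a3 had 6.32 and 7.62 in LysM and 6.83 and 7.08 in KO, against 7.67 and 8.08 in WT, giving -0.91 (adjusted p = 0.07) and -0.93 (adjusted p = 0.1). All LysM and KO arrays lay above WT for Slc7a8 and below WT for Slc43a3, and the LysM arrays lay far apart for the second gene. Slc7a5 had 7.57 and 7.58 in LysM and 7.16 and 7.14 in KO, against 7.60 and 7.87 in WT, and its differences were -0.16 in LysM and -0.58 in KO (adjusted p = 0.13). For Slc7a2 the values were 11.57 and 11.40 in LysM and 11.52 and 11.62 in KO, against 11.34 and 11.41 in WT, with differences of 0.11 and 0.20 and intervals of -0.19 to 0.41 and -0.10 to 0.50.

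Of the amino acid genes outside the carriers, Shmt2 was lower in LysM (-0.70) and KO (-0.94) than in WT. Gclm, a subunit of the enzyme that starts glutathione synthesis, was lower too (-0.72 and -0.76). Higher in both were the ATF4-linked gene Cebpg (0.57 and 0.68), Sat1 (0.71 and 0.56) and the mTORC1 sensing gene Fnip2 (0.86 and 0.67). Of the regulators, Pparg, also an AM marker, was higher (0.92 and 1.04), as was the lysosomal regulator gene Mitf (0.86 and 0.70). Myc was lower in LysM (-0.78). Of 16 ATF4-linked genes 1 was higher and 1 lower in each of the comparisons. Of 32 mTORC1 sensing genes 3 were higher in LysM and 1 in KO, with none lower. Of all genes tested 4.8% were higher and 3.87% lower in LysM, and 2.12% were higher and 1.5% lower in KO. The mean of 7 neutrophil markers was 4.44 to 4.48 in LysM and 4.29 to 4.52 in KO, against 4.06 to 4.30 in WT. Of 5 tested 1, Csf3r, was called higher in each (1.29 and 1.07). The 8 LPM markers averaged 9.61 to 9.73 in LysM and 9.58 to 9.73 in KO, against 9.83 to 9.87 in WT, with F5 and Alox15 called lower in both, Timd4 lower in LysM and Tgfb2 higher in LysM. The 8 endothelial markers averaged 4.88 to 4.89 in LysM and 4.76 to 4.77 in KO, against 4.75 to 4.77 in WT, with 1 of 3 tested higher in LysM and 1 lower in KO. Of 6 tested markers of monocytes, dendritic cells and small peritoneal macrophages 2 were higher and 1 lower in LysM. Of 2 tested mast cell markers 1, Hdc, was lower in KO (-1.25), and none was called in LysM. Their part in the carrier values was not tested.

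Naive cells gave fewer calls. In naive LPM 1 of 29 members was called higher in KO, 3.45%, and 0 lower, against 1.88% of all genes tested, 0.533% higher and 1.35% lower. It was Slc6a3, the dopamine carrier gene, with 4.94, 5.003 and 4.87 in KO, against 4.34, 4.63 and 4.56 in WT. All KO arrays lay above all WT arrays, but Slc6a3 passed the filter through naive KO LPM alone, so this direction is built into its selection. The signal stayed near the array median, and the difference of 0.43 (adjusted p = 0.047) was lost in 11 of 12 other settings. Slc38a6 had 7.41, 7.26 and 7.37 in KO, against 6.68, 7.02 and 6.70 in WT, without overlap, and was not called (0.55, adjusted p = 0.16). Slc36a4 had 6.06, 5.55 and 6.01 in KO, against 6.33, 6.37 and 6.36 in WT, again without overlap and not called (-0.48, adjusted p = 0.18). The 8 LPM markers averaged 10.14 to 10.22 in KO, against 10.53 to 10.56 in WT, with 1 called lower. Of 2 tested mast cell markers 1, Hdc (-1.86), was called lower in KO, and of 5 tested neutrophil markers 1, Csf3r (-0.85). Of 6 tested markers of monocytes, dendritic cells and small peritoneal macrophages 1, Irf4 (-0.61), was called lower. The median of those 6 was 0.14, and none on these lists was called higher. Of the AM markers Chil3 was lower (-1.76) and Pparg higher (0.87). The part of these markers in the carrier values was not tested.

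AM of KO and WT mice had 0 of 29 members called by limma, against 0.12% of all genes tested, 0.0516% higher and 0.0688% lower, and 2 members had an unadjusted p under 0.05. These were Slc7a2, with 9.93 and 9.91 in KO, against 9.33 and 9.62 in WT (0.45, adjusted p = 0.7), and Slc38a2, the stress-inducible glutamine importer SNAT2, with 8.95 and 8.82 in KO, against 8.43 and 8.51 in WT (0.42, adjusted p = 0.91). For both genes the KO arrays lay above the WT arrays. The median member differed by 0.15 and the median gene by 0.05. For Slc7a11 the difference was -0.05 with an interval of -0.49 to 0.39. The KO minus WT difference in LPM minus that in AM called 0 members, against 0.249% of all genes, 0.0774% higher and 0.172% lower. In limma 3 had an unadjusted p under 0.05, Slc36a4 (-0.70), Slc38a2 (-0.55) and Slc6a3 (0.48). Slc6a3 passed the filter through naive KO LPM alone, a group of this contrast.

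**Figure D3:**
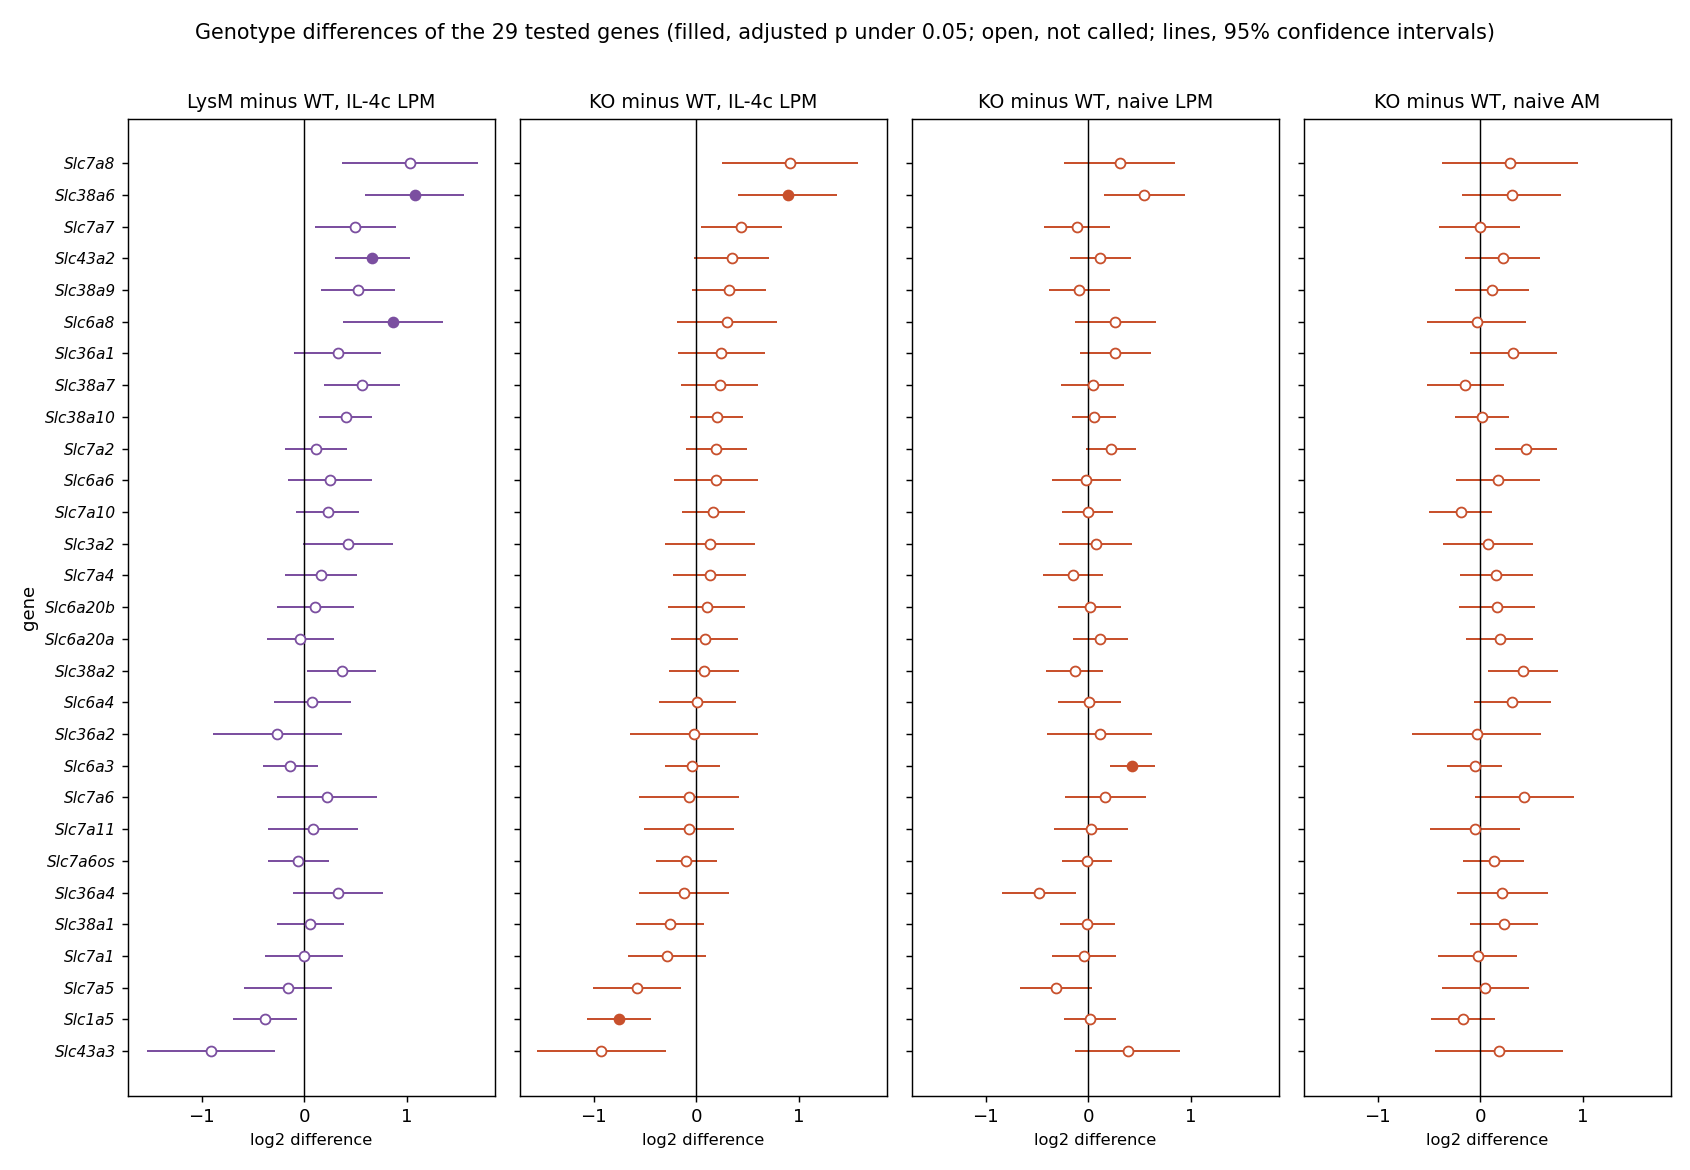
Log2 difference from WT (horizontal axis) of the 29 tested members (rows, ordered by the KO value in IL-4c LPM) for LysM in IL-4c LPM and for KO in IL-4c LPM, naive LPM and naive AM. Filled points passed an adjusted p of 0.05 and lines are 95% confidence intervals; Slc38a6 is filled at 1.07 in LysM and 0.89 in KO, Slc1a5 at -0.76 in KO, and no point is filled in AM.

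The resident populations were compared in naive mice. In naive WT mice 1 of 29 members was higher in LPM than in AM and 11 were lower, 41.4%, against 38.3% of all genes tested, of which 21.2% were higher and 17.1% lower. In naive KO mice 2 were higher and 14 lower, 55.2%, against 40% of all genes tested, of which 17.3% were higher and 22.8% lower. The median difference of the members was -0.29 in KO and -0.24 in WT, and that of all genes -0.01 and 0.02. Because Slc7a11 and Slc6a4 passed the filter through AM alone, they are counted but could not have gone the other way. The members higher in KO were Slc43a2 and Slc6a3 (0.32, adjusted p = 0.039), and Slc6a3 passed the filter through naive KO LPM alone, with a call that held in 2 of 11 other settings.

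Slc7a11, the cystine carrier xCT with the paired ATF4 cores in its promoter, had 3.15, 3.15 and 2.99 in KO LPM and 3.15, 3.00 and 3.06 in WT LPM, against 6.34 and 6.60 in KO AM and 6.15 and 6.90 in WT AM. Every AM array lay far above every LPM array. The signal in LPM lay below the olfactory receptor level, so the 10.3-fold lower value in KO (-3.37 ± 0.19, adjusted p = 3.5e-10) and the 10.9-fold lower value in WT (-3.45 ± 0.19, adjusted p = 2.5e-10) have a background signal as their lower term. Enzymes of cysteine and glutathione went both ways, 1 higher and 3 lower of 10 in KO and 3 higher and 4 lower of 10 in WT. Of all genes tested 17.3% were higher and 22.8% lower in KO, and 21.2% were higher and 17.1% lower in WT. Of the enzymes, thioredoxin reductase Txnrd1 (-1.64 and -1.61) and the glutathione synthesis gene Gclc (-1.54 and -1.32) were the most changed. The gene of NRF2, Nfe2l2, a known activator of these genes, was lower in LPM as well (-1.07 and -0.94). Among regulators on the same list Pparg, also an AM marker, was lower too (-4.94 and -5.55), while Myc was higher (1.07 and 0.61). The ATF4-linked genes went both ways. Atf4 itself (-0.63 and -0.43) and Atf3 (-2.40 and -2.36) were lower, and Nupr1 was higher (2.06 and 2.41). The part of these genes in the differences was not tested.

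Its partner chain and the leucine exchanger had the same direction. Slc3a2 had 8.05, 7.75 and 7.88 in KO LPM and 7.93, 7.65 and 7.88 in WT LPM, against 10.09 and 10.04 in KO AM and 9.68 and 10.31 in WT AM, and was 4.51-fold lower in LPM of KO and 4.5-fold lower in LPM of WT (adjusted p = 8.1e-08 and 8.3e-08). Slc7a5 had 5.93, 5.99 and 5.42 in KO LPM and 6.41, 5.80 and 6.09 in WT LPM, against 8.59 and 8.60 in KO AM and 8.43 and 8.67 in WT AM, 7.05-fold and 5.46-fold lower (adjusted p = 2.4e-09 and 1.4e-08). No LPM array reached an AM array for either gene. Slc7a6, the y+LAT2 chain, was lower too (-0.89 and -0.62), though in WT not without the first LPM array (adjusted p = 0.088) or either AM array (adjusted p = 0.13 and 0.078), and Slc7a8 was not called in either genotype (0.51 and 0.50).

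Slc7a2 was lower in LPM, with log2 differences of -1.48 in KO and -1.25 in WT (adjusted p = 8.6e-08 and 6.5e-07), while Slc7a1 was not called (-0.13 and -0.12). Its signal in AM, 9.93 and 9.91 in KO and 9.33 and 9.62 in WT, thus lay above naive LPM and below the 11.34 to 11.62 of IL-4c LPM, without overlap among these ranges. Arg1 had the other direction, higher in LPM than in AM by 4.81 in KO and 3.23 in WT. Slc36a4 was lower in LPM (-1.90 in KO and -1.20 in WT), with 6.06, 5.55 and 6.01 in KO LPM and 6.33, 6.37 and 6.36 in WT LPM, against 7.80 and 7.75 in KO AM and 7.34 and 7.78 in WT AM. Slc36a1 was not called (-0.27 and -0.21).

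Slc6a6, the taurine carrier, had 9.27, 8.83 and 8.87 in KO LPM and 8.92, 8.92 and 9.19 in WT LPM, against 10.29 and 10.13 in KO AM and 9.82 and 10.24 in WT AM, and was 2.33-fold lower in KO and 2.03-fold lower in WT. Slc43a2 was the sole member higher in LPM in both genotypes, with 7.95, 7.96 and 7.97 in KO LPM and 7.94, 7.62 and 7.97 in WT LPM, against 6.69 and 7.05 in KO AM and 6.62 and 6.69 in WT AM (1.09 and 1.19, adjusted p = 3e-05 and 1.2e-05). Slc43a3, by contrast, was lower (-0.91 and -1.11), in KO not without the second AM array (-0.76, adjusted p = 0.12). Of the glutamine carriers Slc1a5 was lower, with log2 differences of -0.35 in KO and -0.54 in WT, as was Slc38a7 (-0.46 and -0.65), while Slc38a1 and Slc38a2 were called in KO and not in WT (-0.49 and -0.89, against -0.24 and -0.34 in WT), a genotype difference that was not called in its own test. In KO the calls of Slc1a5 and Slc38a7 were lost without either AM array or the second LPM array, and that of Slc1a5 also without the third. The KO call of Slc1a5 held in 3 of 11 other settings, and was lost as well under a second quantile normalization (adjusted p = 0.16), no filter (adjusted p = 0.067), the replicate block (adjusted p = 0.079) and the compared arrays alone (adjusted p = 0.063). The call of Slc38a1 was lost without the second AM array (adjusted p = 0.11), and that of Slc7a7 (-0.52) without the first AM array (adjusted p = 0.19) or the third LPM array (adjusted p = 0.065). Both were lost under a second quantile normalization (adjusted p = 0.071 for Slc38a1 and 0.064 for Slc7a7). Slc7a4, Slc7a10, Slc6a20a and Slc6a20b, with signals near the array median, were called in none of the 10 comparisons.

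Slc6a4, the serotonin carrier, had 4.27, 4.39 and 4.08 in KO LPM and 4.04, 4.11 and 4.57 in WT LPM, against 8.02 and 7.83 in KO AM and 7.54 and 7.69 in WT AM. The AM arrays stood clear of all LPM arrays, whose signal was in the background range, and the log2 differences were -3.68 ± 0.16 in KO and -3.38 ± 0.16 in WT (adjusted p = 1.6e-11 and 4.6e-11). The gene is known from lung endothelium, and 8 endothelial markers, a list chosen after the Slc6a4 values were seen, averaged 4.52 to 4.71 on naive LPM arrays and 4.62 to 4.70 on AM arrays. Of the 8 markers 5 (Cdh5, Cldn5, Kdr, Tek and Emcn) exceeded the array median on no array. Of the 3 tested, Vwf was lower in LPM, as Slc6a4 was (-1.23 in KO and -1.24 in WT), Calcrl was higher (0.98 and 0.76) and Pecam1 was not called. Other cell markers differed as well. The mean of 7 mesothelial and lung epithelial markers was 3.57 to 3.87 on naive LPM arrays and 5.75 to 6.28 on AM arrays, with 4 of 4 tested lower in LPM in each genotype. For 7 neutrophil markers it was 4.57 to 4.85 and 5.18 to 5.52, with 3 of 5 tested lower in KO and 2 of 5 in WT and 1 higher in each, and for 7 B cell markers 4.15 to 4.87 and 3.77 to 3.92, with 3 of 4 tested higher in each. Their part in the carrier differences was not tested.

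**Figure D4:**
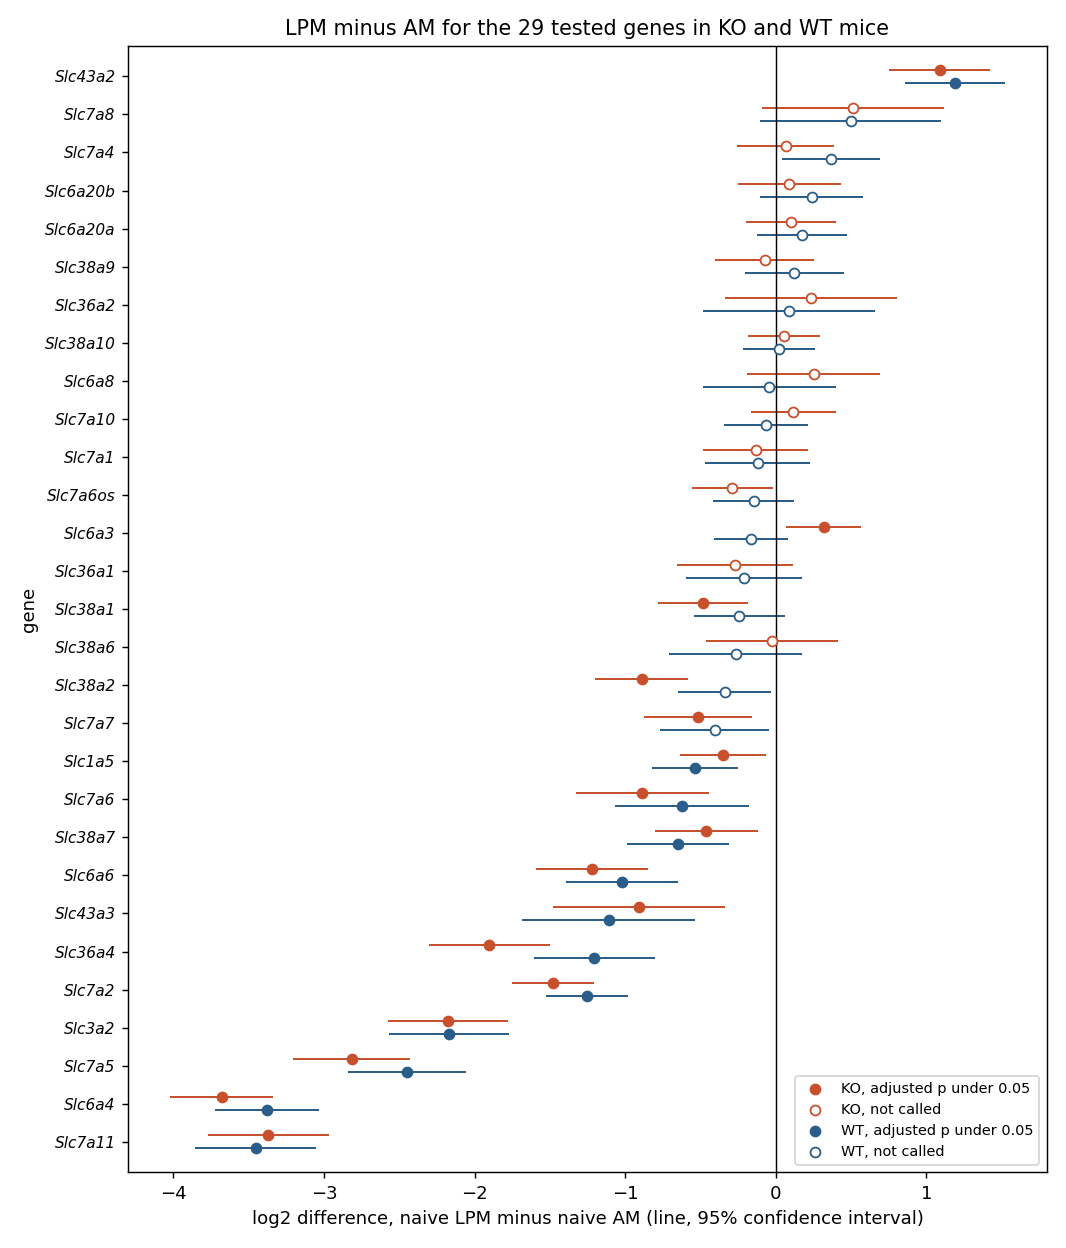
Log2 difference of naive LPM minus naive AM (horizontal axis) for the 29 tested members (rows, ordered by the WT value), in KO above and in WT below within each row. Lines are 95% confidence intervals and filled points passed an adjusted p of 0.05; Slc7a11 stands at -3.37 in KO and -3.45 in WT at the bottom and Slc43a2 at 1.09 and 1.19 at the top.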

How the data were processed

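The authors deposited log2 signals for 30177 probe sets on each of 16 arrays. Per the submitters' processing notes they were made with RMA, which corrects background, equalises distributions over arrays and summarises probes, so a change in total RNA leaves no trace. The sources used here name no RMA version, processing dates or set of arrays run together, so batches were not tested. Groups came from sample titles. Probe sets with 1 symbol (21789) were used, the brightest per gene; those with several (1621) or none (6767) were not. All 64 members matched RefSeq genes (GRCm38.p6) by Entrez ID. Genes above the array median on at least 2 arrays entered a limma 3.58.1 fit (R 4.3.3) of 7 group means over all 16 arrays, which share a variance estimate (median SD within groups 0.1709). Calls are Benjamini-Hochberg adjusted p under 0.05 over 11634 genes in each of 10 comparisons. A difference is the first group minus the second. The fit was tested on simulated data. Members and lists were chosen with earlier results of these data known. Any member could be named. Of other lists, the 3 called genes with the largest difference could be named, plus Bhlhe40 and Atf4. Alternatives were a second quantile normalization, median centring, no filter, the mean of probe sets, only the compared arrays, a replicate block and leaving out each array. Figures used Python 3.11.15 and matplotlib 3.10.9.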

Additional observations from a re-analysis of the deposited data

How the results depend on the processing

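The number of members called stayed within 1.5 times its reported value under every alternative run for IL-4c against naive LPM (12 in KO, 14 in WT), LPM against AM (16 in KO, 12 in WT), AM of KO against WT (0) and the genotype by cell type interaction (0). For KO against WT in naive LPM the reported 1 (Slc6a3) was 0 under a second quantile normalization, centring, no filter, only the compared arrays and the replicate block. For KO in IL-4c LPM the reported 2 was 1 under centring, no filter and only the compared arrays. For LysM the reported 3 was 7 under a second quantile normalization, which added Slc7a8, Slc38a7, Slc38a9 and Slc38a10. For the genotype by IL-4c interaction the reported 0 was 1 under a second quantile normalization and 1 with only the compared arrays. Leaving out each array in turn gave 0 to 0 in AM, 0 to 0 in naive LPM, 0 to 2 for KO in IL-4c LPM, 0 to 5 for LysM, 9 to 12 for IL-4c in KO, 10 to 14 for IL-4c in WT, 11 to 15 for LPM against AM in KO, 11 to 13 in WT, and 0 to 0 for both interactions. In LysM the count was 0 without the second WT array, 1 without the first and 5 without the second LysM array. No value of a named member reversed. Outside the leave-one-out settings 483 gene values kept their side of the threshold, 30 lost and 14 gained a call; with an array left out these were 400, 55 and 4. The labels give no shared litter or day for a replicate number, and deviations of 43 same-numbered pairs correlated at -0.14 to 0.21, 8 of them over 0.1. All 6 pairs among the IL-4c LPM groups were over 0.1 (0.115 to 0.21), a hint from the data that rests on 2 numbers a group. With 2 arrays in each group the deviations mirror each other, so both replicate numbers must give the same correlation. The values 0.115, 0.148 and 0.21 thus each occur for both numbers, and the 6 pairs are not independent. Every pair over 0.1 was a repeat of this kind. With the replicate block the counts were 0 in AM, 0 in naive LPM, 2 for KO and 4 for LysM in IL-4c LPM (3 higher and 1 lower, the added one being Slc43a3 at -0.91, adjusted p = 0.038), 11 and 14 for IL-4c in KO and WT, 14 and 12 for LPM against AM in KO and WT, and 0 for both interactions. A group with 1 array left was assumed to vary like the others. Signals near the array median, as for Slc6a3 and Slc6a8, limit what small differences show.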
